A study of Drosophila melanogaster with 36 samples.

Results

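Mitotic genes encode the machinery that separates chromosomes and divides the cell, and 40 of them were listed: spindle kinesins, central spindle and cytokinesis proteins, the chromosomal passenger complex, centromere and kinetochore proteins, the spindle checkpoint, regulators of anaphase, mitotic cyclins with a Cdc25 phosphatase, and condensin. A gene was measured where a probe set of the array carried that gene alone in the platform annotation, and where a gene had several, the one brightest on average across the 36 arrays stood for it. This gave 39 of the 40 genes, out of 11981 genes measured in the series. Myt1, a kinase that inhibits Cdk1, was not matched and was not analysed here.

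The cells were Kc167, a Drosophila melanogaster line derived from embryos that resembles hemocytes, the blood cells of the fly. They received fresh medium, either plain (control) or containing 40 µg/mL of MMS, methyl methanesulfonate, which methylates DNA and other molecules. RNA from 4 cultures per group was hybridised to Affymetrix Drosophila Genome 2.0 arrays. The 9 groups were control cultures at 0, 1, 8, 24 and 72 h after the medium was changed and MMS cultures at 1, 8, 24 and 72 h, with 4 arrays in each. All groups shared the same unmodified line, so the results describe 1 cell line at 1 dose.

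In dividing cells the transcripts of many mitotic genes are made late in the cycle, from S phase into G2, and their proteins act within a short window before the cell divides. Kinesins and the kinetochore move chromosomes, the checkpoint holds anaphase back until each chromosome is attached, and the anaphase-promoting complex (APC) then releases separase and destroys cyclin B. The central spindle and the contractile ring finish division. These transcripts are commonly read as a sign of how actively a culture proliferates.

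The deposited values were log2 intensities, with array medians from 4.47 to 4.66 over all probe sets. Arrays of 1 group correlated at 0.9825 to 0.9984 over the 11981 genes. The median of the gene means was 5.55. Of 16 hemocyte markers, 14 lay at or above it, among them Hml (mean 11.69) and srp (10.37), while gcm (4.03) and Sr-CI (4.30) were low. At or above it were 0 of 6 muscle, 2 of 7 neuron, 1 of 6 fat body and gut, and 4 of 8 germline markers, the last with aub at 9.52. The 8 arrays of the 8 h time point stood apart in their RNA: the 5′ probe set for 18S rRNA read 10.56 to 11.33 there and 3.44 to 6.65 on the other 28 arrays, and the mean 3′ to 5′ difference of the control transcripts was 1.42 to 1.67 against 0.51 to 0.72. Both conditions at 8 h shared this, so comparisons of 8 h with 0 h cannot be told apart from it. The 3′ to 5′ difference at 8 h was 1.424 to 1.665 in control and 1.581 to 1.671 with MMS. Its part in MMS against control at 8 h was not tested. At 24 h, arrays numbered 1 and 2 stood apart from those numbered 3 and 4 in both conditions.

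The first question was how the mitotic genes moved as a group in each array. Relative to the control mean at 0 h, the median over the 39 genes was 0.00 ± 0.14 on the log2 scale in control at 0 h (mean ± SD of the arrays, n = 4, as for all groups) and -0.17 ± 0.06 in control at 8 h. It was 0.105 ± 0.059 in control at 1 h, -0.23 ± 0.12 in control at 24 h and -0.86 ± 0.16 in control at 72 h. The untreated cultures thus kept most of their level for a day and stood lower at 72 h. With MMS the median was 0.01 ± 0.07 at 1 h, -0.46 ± 0.10 at 8 h, -0.87 ± 0.09 at 24 h and -0.91 ± 0.12 at 72 h. At 1 h the MMS arrays lay between -0.084 and 0.067 and the control arrays between 0.067 and 0.193. At 24 h the MMS arrays lay between -0.97 and -0.79 and the control arrays between -0.35 and -0.11, with no overlap. At 72 h the MMS arrays, -1.07 to -0.78, overlapped the control arrays, -1.02 to -0.68. In bulk RNA, fewer dividing cells and less of these transcripts in each cell cannot be told apart.

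**Figure D1:**
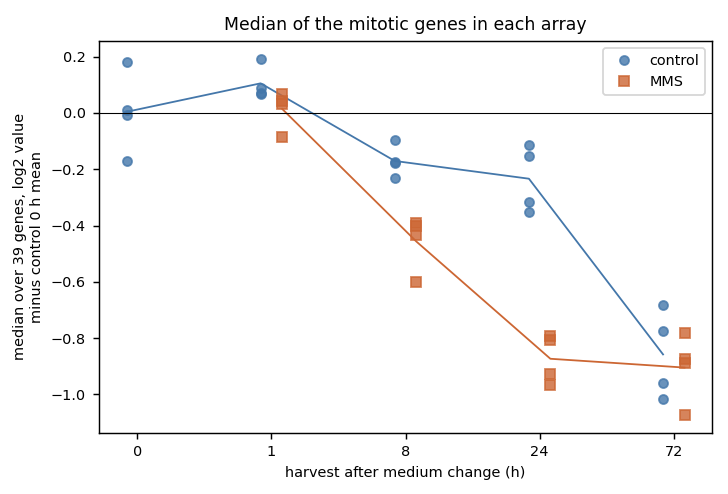
Median log2 value of the 39 mitotic genes in each array relative to the control mean at 0 h (y axis) by hours of harvest (x axis, evenly spaced), with 1 point per array and lines through the means of 4. MMS arrays lie below all control arrays of the same time at 8 and 24 h and overlap them at 72 h.

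**Figure D2:**
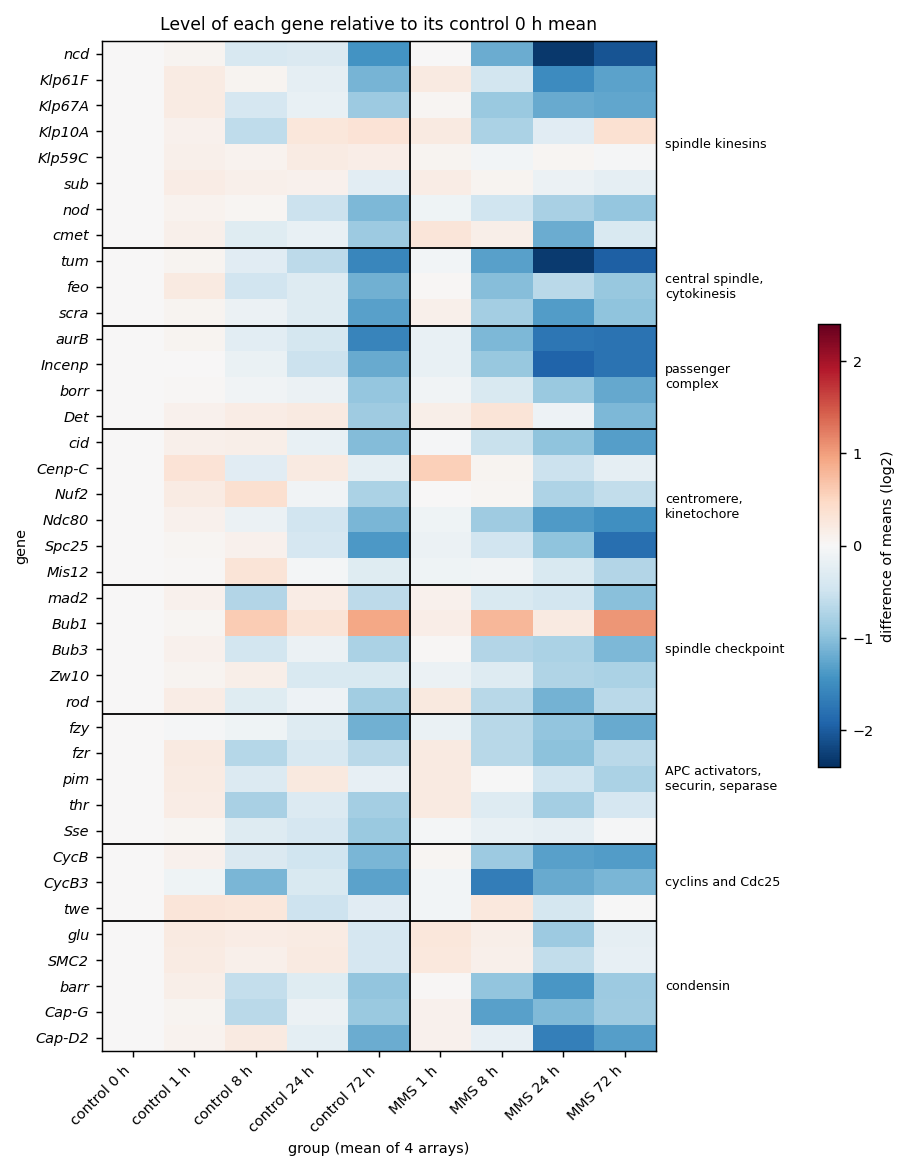
Mean log2 level of each gene (rows, by role) in each group of 4 arrays (columns) minus its control 0 h mean. Most rows are blue in MMS at 24 h and 72 h and in control at 72 h, while Bub1 is red there. Klp10A is pale red at 72 h, and Klp59C lies just above 0 in MMS at 24 h and in control at 72 h.

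At 1 h none of the 39 genes was called different between MMS and control. Over all genes, 0% were called lower and 0% higher at an adjusted p under 0.05 (limma, with Benjamini-Hochberg adjustment over all 11981 genes, the threshold used throughout), and at an unadjusted p under 0.05 there were 2 of the 39 and 684 genes, or 5.71%, in all. The smallest adjusted p was 0.836 among the mitotic genes and 0.336 over all genes. Control at 1 h against 0 h called 0 of the 39, with 0.0668% of all genes lower and 0.2% higher. There 1 of the 39 had an unadjusted p under 0.05, against 7.14% of all genes.

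By 8 h, 20 of the 39 genes were lower with MMS and 0 were higher, against 11.5% lower and 8.85% higher over all genes. At an unadjusted p under 0.05, 24 were lower and 1 was higher, against 30.8% of all genes in either direction. The median change was -0.38 on the log2 scale, and -0.02 over all genes. In 23 of the 39 every MMS array lay below every control array, which 14.8% of all genes showed. The largest falls were in tum, aurB and ncd. tum fell by 1.02 ± 0.13 (log2 change ± SE, n = 4 against 4, adjusted p = 3.18e-07), the only 2-fold fall, aurB by 0.84 ± 0.16 (adjusted p = 0.000272) and ncd by 0.81 ± 0.14 (adjusted p = 4.4e-05). Incenp, Ndc80, scra, cid, Cap-G, CycB3 and fzy completed the 10 largest, with falls from 0.57 to 0.75. CycB3 was not called without array 3 of MMS at 8 h (adjusted p = 0.0522), and fzy turned to 0.20 when its probe sets were averaged. Condensin had 1 of its 5 genes called. Leaving out array 3 of control at 8 h called 2 genes higher, and the share over all genes in that fit is not given.

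At 24 h, 28 of the 39 genes were lower with MMS and 0 were higher, against 10% lower and 10.2% higher over all genes. At an unadjusted p under 0.05 these were 33 and 1, against 29% of all genes in either direction. Of the 28, 12 fell at least 2-fold, as 1.65% of all genes did. The median change was -0.73, against -0.02 over all genes, and the range was -1.98 to 0.18. In 29 of the 39 genes all MMS arrays lay below all control arrays, against 12.1% of all genes. Falls were called within both sets of arrays that stood apart. Within arrays 1 and 2 of 24 h, 22 genes fell and 0 rose with a median of -0.72. Within arrays 3 and 4, 24 fell and 0 rose with a median of -0.78. Each of these fits set 2 arrays against 2, with the spread estimated over all 36 arrays. Shares over all genes were not taken for these fits, so their counts are not read as a result about the mitotic genes. Of the 20 genes lower at 8 h, 19 were lower at 24 h, and nod alone was not (-0.27 ± 0.11, adjusted p = 0.0789). With the array number as a block on the 24 h arrays alone, 35 genes fell, against 17.3% lower and 15.9% higher over all genes. The 7 added were Klp10A, sub, nod, Det, Cenp-C, Mis12 and thr (adjusted p from 5.95e-08 for Cenp-C to 0.0312 for sub). That fit was chosen after the data were seen, and the same block over all 36 arrays gave 28 lower genes. Calls below are those of the fit over all arrays without a block. Among marker genes, 7 of 16 hemocyte markers fell and 3 rose at 24 h, and 4 of 8 germline markers fell. Their part in the result was not tested.

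**Figure D3:**
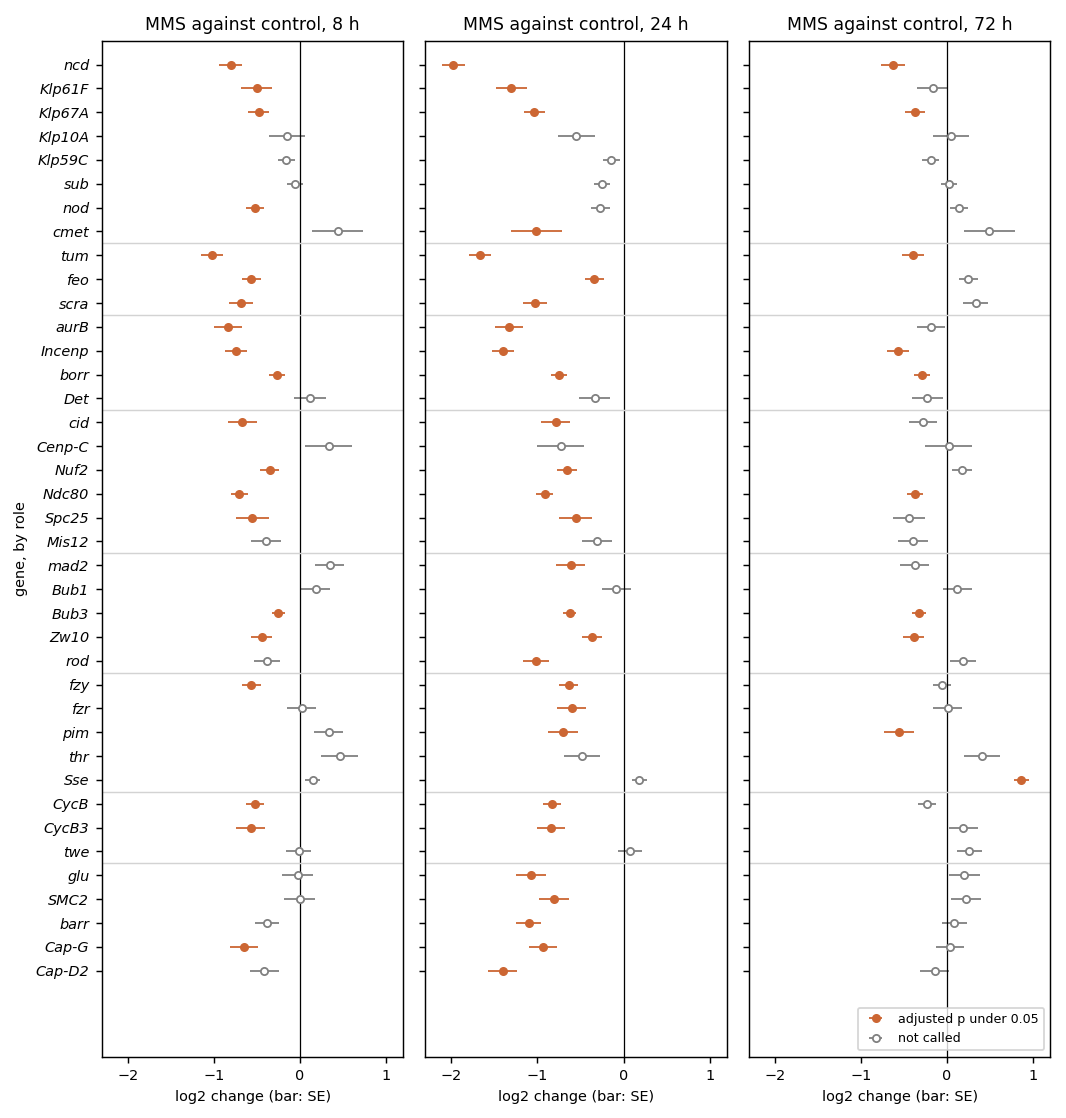
Log2 change with MMS against control of each of the 39 genes at 8, 24 and 72 h (x axes, bars are SE), in rows by role, filled where the adjusted p was under 0.05. At 24 h 28 points are filled, all left of 0, and at 72 h Sse is the filled point right of 0.

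Among the 8 spindle kinesins, 4 fell at 24 h. The largest change was in ncd, a kinesin that moves towards microtubule minus ends and gathers spindle poles. Its log2 values in control at 24 h were 10.61, 10.53, 10.47 and 10.42, and with MMS 8.72, 8.74, 8.34 and 8.32. All 4 treated arrays lay far below the controls, and the fall was 1.98 ± 0.14 (3.94-fold, adjusted p = 1.69e-13). At 8 h the controls read 10.41, 10.38, 10.45 and 10.60 and the MMS arrays 9.92, 9.44, 9.60 and 9.65, again without overlap. At 72 h the controls themselves stood at 9.06, 9.29, 9.50 and 9.80, with MMS at 9.02, 8.61, 8.55 and 8.97. The difference there was -0.63 ± 0.14 (adjusted p = 0.000538): all controls were lower than at 24 h, while the MMS arrays overlapped those of 24 h.

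Klp61F, the kinesin-5 that pushes spindle poles apart, fell by 1.30 ± 0.18 at 24 h (adjusted p = 7.1e-07), and Klp67A, a kinesin that limits microtubule length, by 1.04 ± 0.12 (adjusted p = 2.04e-08). cmet, the CENP-E homologue that carries chromosomes along microtubules, is given by array after its values were seen, for its late change. Its arrays at 8 h were 7.64, 8.62, 9.20 and 8.88 in control and 8.70, 9.01, 9.19 and 9.20 with MMS, which overlap. At 24 h they were 9.05, 8.93, 8.34 and 8.45 in control and 7.91, 8.09, 7.35 and 7.38 with MMS, wholly lower. In both conditions arrays 3 and 4 were the low ones. The change was -1.01 ± 0.30 (adjusted p = 0.0114), with a wide SE. The depolymerising kinesins Klp10A (-0.55 ± 0.21, adjusted p = 0.0661) and Klp59C (-0.14, adjusted p = 0.395) and the kinesin-6 sub (-0.25, adjusted p = 0.0546) were not called.

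All 3 central spindle and cytokinesis genes fell at 8 h and at 24 h. tum encodes the GTPase-activating subunit of centralspindlin, which bundles the midzone and positions the ring. Its control arrays at 24 h read 10.70, 10.53, 10.59 and 10.57 and its MMS arrays 9.06, 9.09, 8.86 and 8.72. The groups were well apart, and the fall was 1.67 ± 0.13 (3.18-fold, adjusted p = 1.72e-12). At 8 h control arrays were 11.04, 10.96, 10.81 and 10.98 and MMS arrays 10.16, 9.72, 9.92 and 9.91, also apart. scra, the fly anillin of the contractile ring, fell by 1.03 ± 0.14 (adjusted p = 6.99e-07). feo, the PRC1 homologue that crosslinks antiparallel microtubules, fell by less, 0.34 ± 0.11 (adjusted p = 0.0233).

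The chromosomal passenger complex corrects faulty attachments and then moves to the midzone, and 3 of its 4 genes fell at 24 h. Incenp, its scaffold, read 10.94, 10.81, 10.69 and 10.76 in control and 9.52, 9.62, 9.19 and 9.25 with MMS, a fall of 1.40 ± 0.13 (adjusted p = 1.1e-10) with no overlap. At 8 h it read 11.25, 11.07, 11.11 and 11.17 in control and 10.75, 10.25, 10.29 and 10.32 with MMS, where array 1 was the high one. The kinase aurB fell by 1.33 ± 0.16 (adjusted p = 7.78e-08) and borr, the borealin, by 0.75 ± 0.09 (adjusted p = 7.26e-08). Det, the survivin homologue, was not called (-0.34 ± 0.18, adjusted p = 0.235).

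Of 6 centromere and kinetochore genes, 4 fell at 24 h. Ndc80 and Nuf2, which form the microtubule-binding end of the kinetochore, fell by 0.92 ± 0.10 (adjusted p = 3.39e-09) and 0.66 ± 0.11 (adjusted p = 2.47e-05). Spc25 of the same complex fell by 0.56 ± 0.19 (adjusted p = 0.0317). cid, the centromeric histone H3 of the fly, fell by 0.79 ± 0.17 (adjusted p = 0.000484). Cenp-C, which links that histone to the outer kinetochore, had all MMS arrays below the controls but a wide SE (-0.73 ± 0.27, adjusted p = 0.0546). With the block on the 24 h arrays alone its adjusted p was 5.95e-08. Mis12 was not called (adjusted p = 0.267).

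The spindle checkpoint had 4 of its 5 genes lower at 24 h. rod, part of the complex that brings dynein to kinetochores, fell by 1.02 ± 0.15 (adjusted p = 2.58e-06) and its partner Zw10 by 0.37 (adjusted p = 0.0255). Bub3 fell by 0.63 ± 0.08 (adjusted p = 1.58e-07) and mad2, the inhibitor of the Cdc20 activator, by 0.61 ± 0.17 (adjusted p = 0.00712). Bub1, the checkpoint kinase, did not follow them. Its arrays at 24 h were 8.10, 7.99, 7.44 and 7.43 in control and 7.84, 7.75, 7.55 and 7.48 with MMS, overlapping throughout (-0.08 ± 0.17, adjusted p = 0.823). These array values, like those of Sse, were picked after they were seen.

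Of the 5 genes that act at anaphase, 3 fell at 24 h. The APC activators fzy (Cdc20) and fzr (Cdh1) fell by 0.64 ± 0.11 (adjusted p = 1.89e-05) and 0.60 ± 0.17 (adjusted p = 0.00744). fzy was the only gene of the set with several probe sets, and the other two, of mean 4.23 and 4.60 against 11.35 for the one used, changed by 0.12 and 0.14. pim, the securin that holds separase inactive, fell by 0.71 ± 0.17 (adjusted p = 0.00213). thr, its partner in the separase complex, gave -0.48 (adjusted p = 0.115). Sse, the separase itself, gave 0.18 ± 0.09 (adjusted p = 0.146), with 8.35, 8.33, 8.48 and 8.39 in control and 8.57, 8.55, 8.48 and 8.68 with MMS.

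CycB and CycB3, the cyclins that drive Cdk1 in mitosis, fell by 0.83 ± 0.10 (adjusted p = 1.29e-07) and 0.84 ± 0.17 (adjusted p = 0.000187). twe, the Cdc25 phosphatase of meiosis, was the gene nearest to 0 at 24 h. Its control arrays read 4.33, 4.45, 4.31 and 4.32 and its MMS arrays 4.43, 4.58, 4.45 and 4.24, which overlapped (0.07 ± 0.14, adjusted p = 0.815). Its mean signal, like that of Klp59C and sub, lay below the median of all genes. None of these 3 dim genes fell at 24 h, while 28 of the other 36 did. The shares over all genes given here cover dim and bright genes together and are not matched for signal.

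Condensin compacts mitotic chromosomes, and all 5 of its genes fell at 24 h, with a median of -1.07. Cap-D2 read 8.51, 8.46, 8.18 and 8.14 in control and 7.11, 7.09, 6.65 and 6.84 with MMS, well separated (-1.40 ± 0.17, adjusted p = 4.27e-08). At 8 h its arrays were 8.33, 8.73, 8.96 and 9.10 in control and 8.62, 8.14, 8.31 and 8.40 with MMS, and these overlapped. The kleisin barr fell by 1.10 ± 0.14 (adjusted p = 2.27e-07), and the ATPase arms glu and SMC2 by 1.07 ± 0.18 (adjusted p = 1.44e-05) and 0.81 ± 0.18 (adjusted p = 0.000694). Cap-G fell by 0.93 ± 0.16 (adjusted p = 2.87e-05) and was the condensin gene already lower at 8 h (-0.65 ± 0.16, adjusted p = 0.00304).

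**Figure D4:**
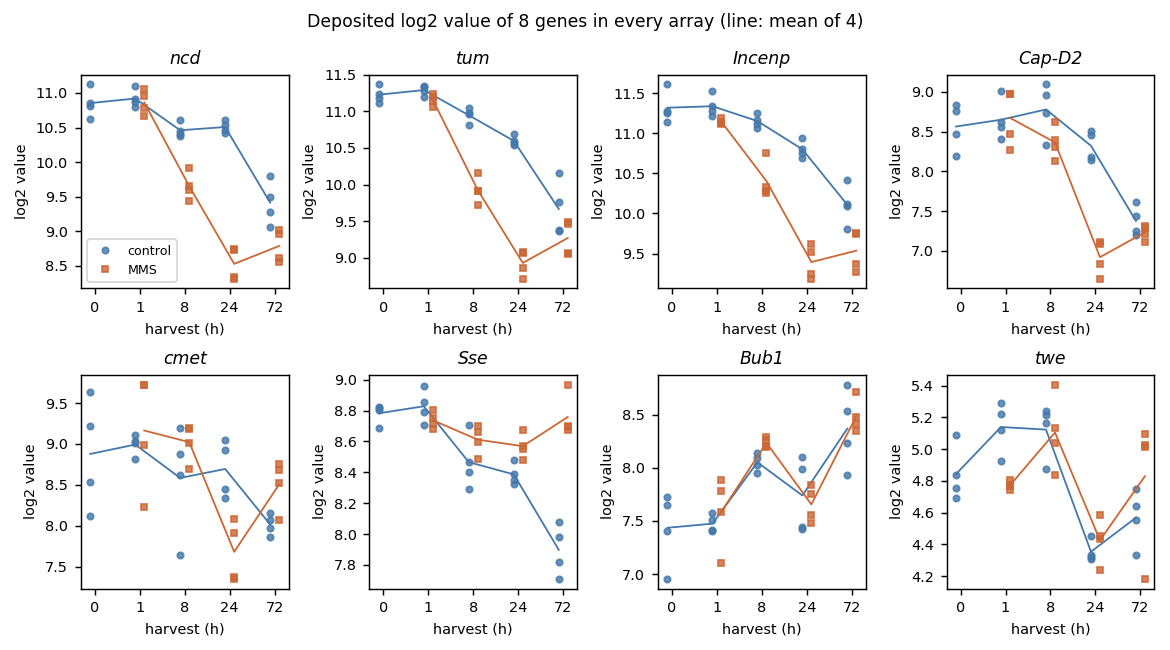
Deposited log2 value of 8 genes in every array (y axes, scaled per gene) by hours of harvest (x axes, evenly spaced), with lines through the means of 4 arrays. ncd, tum, Incenp and Cap-D2 separate at 24 h, Sse separates at 72 h, and Bub1 and twe overlap at 24 and 72 h.

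The change of the MMS effect between time points was tested directly, as the difference of the differences. From 8 h to 24 h it moved down in 15 of the 39 genes and up in 0, against 3.02% down and 4.96% up over all genes, with a median of -0.40. At an unadjusted p under 0.05 these counts were 20 and 0, against 20.7% of all genes in either direction. The test sets the 8 h arrays, with a 3′ to 5′ difference of 1.42 to 1.67 in both conditions, against 24 h arrays at 0.51 to 0.61. The part of that gap was not tested. The 5 smallest adjusted p were those of ncd (-1.17 ± 0.19, adjusted p = 7.67e-05), pim (-1.03 ± 0.24, adjusted p = 0.00496), glu (-1.04 ± 0.25, adjusted p = 0.00605), Cap-D2 (-0.99 ± 0.24, adjusted p = 0.00605) and mad2 (-0.96 ± 0.24, adjusted p = 0.00904). Of the 15, 8 had not been called at 8 h: cmet, mad2, pim, thr and the condensin genes glu, SMC2, barr and Cap-D2. For mad2, pim, thr and cmet the 8 h value was above 0 (0.34, 0.33, 0.46 and 0.44), none of them called. The count of 15 genes depended on single arrays. It was 7 without array 4 and 9 without array 3 of MMS at 24 h. Without array 1 of control at 8 h it was 8. It was 9 without array 4 of MMS at 8 h and 9 without array 1 of control at 24 h.

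At 72 h the difference between MMS and control was small for most genes. Of the 39, 9 were lower with MMS and 1 was higher, against 12.5% lower and 17% higher over all genes, with a median of -0.06 (-0.05 over all genes). With each array centred on its median, 15 were lower and 1 higher, against 41.8% lower and 11.7% higher over all genes. In 8 genes the MMS arrays lay wholly below the controls, against 12.3% of all genes. The 9 were ncd, Klp67A, tum, Incenp, borr, Ndc80, Bub3, Zw10 and pim, with falls from 0.29 to 0.63, Bub3 by 0.32 ± 0.08 (adjusted p = 0.00223). All but pim had also been lower at 8 h and 24 h. Incenp read 9.80, 10.09, 10.12 and 10.42 in control and 9.76, 9.38, 9.27 and 9.74 with MMS, just apart (-0.57 ± 0.13, adjusted p = 0.000652). tum read 9.38, 9.37, 9.76 and 10.16 in control and 9.49, 9.05, 9.07 and 9.46 with MMS, which overlapped (-0.40 ± 0.13, adjusted p = 0.0161).

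The smaller falls at 72 h rested on few arrays. tum lost its call without array 4 of control at 72 h (adjusted p = 0.144), without array 2 of MMS at 72 h (0.062) or without array 3 of it (0.0752). borr and pim lost theirs without array 3 (adjusted p = 0.0747 and 0.0585) or array 4 (0.106 and 0.0561) of control at 72 h. Klp67A and Zw10 lost theirs without array 2 of MMS at 72 h (adjusted p = 0.0721 and 0.0787). The count of higher genes was 3 without array 4 of control at 72 h and 4 without array 2 of MMS at 72 h. The 3′ to 5′ difference also moved with treatment at this time, 0.69 to 0.72 with MMS and 0.54 to 0.63 in control, and its part was not tested.

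The gene that was higher at 72 h was Sse, the separase. Its arrays read 7.71, 7.82, 8.08 and 7.98 in control and 8.68, 8.69, 8.97 and 8.70 with MMS, wholly apart (0.86 ± 0.09, 1.82-fold, adjusted p = 7.1e-10). The control arrays had come down from 8.82, 8.81, 8.82 and 8.69 at 0 h, a fall of 0.89 ± 0.09 (adjusted p = 1.85e-10), while the MMS arrays at 72 h overlapped the range of 0 h. MMS at 72 h against 0 h was not tested. thr, which binds separase, also had every MMS array above the controls at 72 h, without a call (0.41 ± 0.21, adjusted p = 0.149).

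From 24 h to 72 h the MMS effect moved up in 23 of the 39 genes and down in 0, against 9.13% up and 4.53% down over all genes, with a median of 0.61 and 12 upward moves of at least 2-fold, against 2.76% of all genes. At an unadjusted p under 0.05, 28 moved up and 0 down, against 24.3% of all genes in either direction. The 5 smallest adjusted p were those of tum (1.27 ± 0.18, adjusted p = 2.52e-06), ncd (1.35 ± 0.19, adjusted p = 3.32e-06), scra (1.36 ± 0.20, adjusted p = 5.75e-06), barr (1.19 ± 0.20, adjusted p = 5.3e-05) and rod (1.21 ± 0.21, adjusted p = 8.88e-05). All 5 condensin genes and all 3 cytokinesis genes were among the 23.

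That move has a treated and an untreated side, which were also set apart. Between MMS at 24 h and MMS at 72 h, 9 of the 39 genes rose and 6 fell, against 22.3% higher and 19.9% lower over all genes. Both counts lay near those shares, so neither is read as a result about the mitotic genes. With each array centred on its median the split turned, to 4 higher and 14 lower, against 16.4% and 51.9% of all genes. The 9 were Klp10A, cmet, tum, scra, Bub1, rod, twe, glu and barr, and the 6 were borr, Det, Spc25, mad2, Bub3 and fzy. The largest rise was that of Bub1 (0.83 ± 0.17, adjusted p = 0.000149) and the largest fall that of Det (-0.96 ± 0.18, adjusted p = 7.47e-05). The count of rises was 5 without array 3 and 4 without array 4 of MMS at 24 h, and 5 without array 4 of MMS at 72 h.

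On the untreated side, control at 72 h against control at 24 h had 28 of the 39 genes lower and 1 higher, against 14.9% lower and 15% higher over all genes, with a median of -0.67. This comparison was added after the data were seen. tum changed by -0.93 ± 0.13 between these control groups (adjusted p = 4.14e-07) and by 0.34 between the MMS groups, while ncd changed by -1.09 ± 0.14 in control (adjusted p = 9.16e-08). Bub1 was the gene that rose (0.63 ± 0.17, adjusted p = 0.00362).

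Over its whole course, from 0 h to 72 h, the control culture had 30 of the 39 genes lower and 1 higher, against 19.8% lower and 16.7% higher over all genes. Of these, 15 fell at least 2-fold, against 5.55% of all genes, and 28 had every array at 72 h below every array at 0 h, against 16.3% of all genes. The median change was -0.86, and -0.01 over all genes. In the same comparison 8 of 16 hemocyte markers rose and 2 fell, with a median of 0.62, and 3 of 8 germline markers fell and 1 rose. Their part in the result was not tested. The largest falls were in aurB (-1.58 ± 0.16, adjusted p = 8.56e-10), tum (-1.56 ± 0.13, adjusted p = 3.31e-12), ncd (-1.44 ± 0.14, adjusted p = 1.3e-10) and Spc25 (-1.38 ± 0.19, adjusted p = 2.61e-07). CycB3, scra, Incenp, Cap-D2, feo and fzy completed the 10 largest, with falls from 1.16 to 1.31. The value of fzy was 0.07 when its probe sets were averaged. ncd had been at 10.81, 10.85, 11.12 and 10.62 at 0 h, so its 72 h control arrays, given above, were all lower.

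Earlier in the untreated series the changes were fewer. Control at 24 h against 0 h had 10 genes lower and 0 higher, against 10.8% lower and 4.82% higher over all genes. At an unadjusted p under 0.05 it had 17 lower and 0 higher, against 26.6% of all genes in either direction. Its largest fall was in tum (-0.63, adjusted p = 0.000457). Control at 8 h against 0 h had 13 lower and 2 higher, against 16.4% lower and 16.8% higher over all genes, and the RNA of the 8 h arrays bears on these. The largest fall at 8 h was that of CycB3 (-1.09 ± 0.17, adjusted p = 3.21e-06).

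Bub1 was the gene that rose in the ageing culture. Its control arrays were 7.41, 7.73, 7.65 and 6.96 at 0 h and 8.53, 8.78, 8.23 and 7.93 at 72 h, wholly higher (0.93 ± 0.17, adjusted p = 2.54e-05). With MMS at 72 h they were 8.41, 8.34, 8.71 and 8.47, within the range of the controls of that time. The kinase and its checkpoint partner Bub3 thus moved in opposite directions with age, Bub3 by -0.76 ± 0.08 (adjusted p = 1.52e-09).

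Day-old treated cultures and 3-day-old untreated ones were set side by side, since the 2 comparisons have no array in common. Of the 39 genes, 25 fell in both, 3 only with MMS at 24 h (pim, glu and SMC2), 5 only in control at 72 h (sub, nod, Det, thr and Sse) and 6 in neither. The 25 were 89.3% of those that fell with MMS and 83.3% of those that fell with age. The shares over all genes were 47.2% and 23.9%. Since 76.9% of the 39 genes fell with age and 71.8% with MMS, a large overlap follows from those counts alone, and no link between the changes is read from it. Over the 39 genes the changes had a Pearson r of 0.585, against 0.284 over all 11981 genes, given as a description, since the genes share arrays and platform. The order differed in places: nod fell by 1.07 ± 0.11 with age (adjusted p = 5.09e-10) and glu gave -0.41 with age (adjusted p = 0.0698). Whether these genes differ between the 2 comparisons was not tested.

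**Figure D5:**
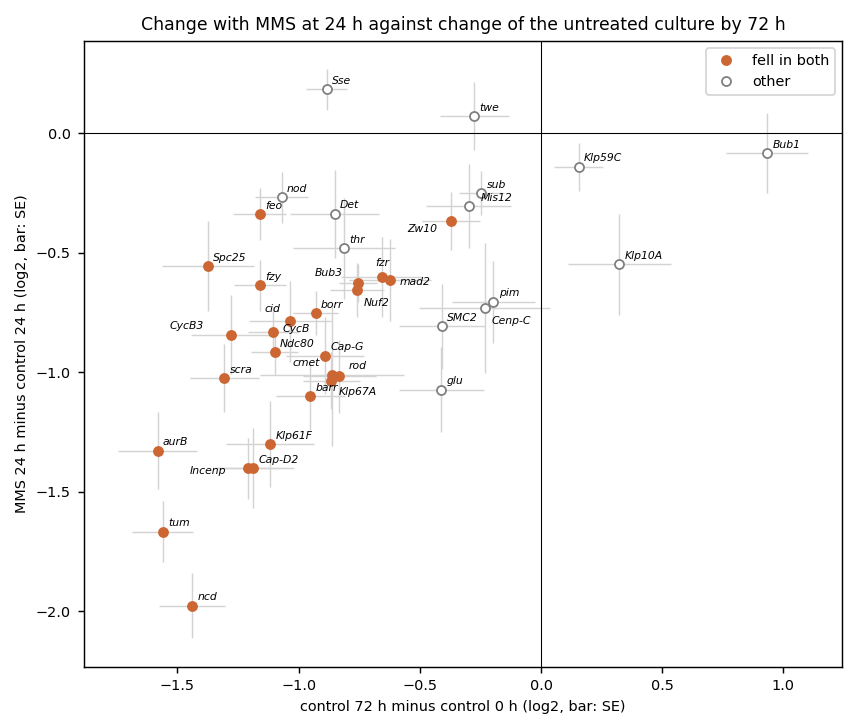
Log2 change with MMS at 24 h (y axis) against the change of the untreated culture from 0 h to 72 h (x axis), 1 point per gene with SE bars, filled for the 25 genes that fell in both. ncd, tum, aurB, Incenp and Cap-D2 are low on both axes, Bub1 is high on the x axis alone, and Sse is low on the x axis alone.

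Other mitosis genes were counted from lists that name further kinases, APC subunits, motors, centrosome, augmin, cohesin and ring components, 67 of 92 of them measured. Among those not measured were polo, aurA, CycA, stg, pav, asp and cnn. The list of entry kinases, cyclin A and string had 3 of 10 measured. At 24 h, 26 of the 67 fell and 4 rose with MMS, with a median of -0.30, against 10% and 10.2% of all genes. In control at 72 h against 0 h 36 fell and 7 rose, with a median of -0.39, against 19.8% and 16.7% of all genes. With MMS at 72 h 9 fell and 17 rose, against 12.5% and 17% of all genes, so the falls were near the background. mars, a spindle protein related to HURP (-1.40 ± 0.10, adjusted p = 1.14e-12), and spd-2, a centrosome scaffold (-1.32 ± 0.11, adjusted p = 8.18e-12), were among those that fell at 24 h. Augmin and the gamma-tubulin complex had 7 of 13 lower and 1 higher. The APC list, which also holds the ubiquitin-conjugating enzyme vih and the meiotic activator cort, had 0 of 10 lower and 3 higher, among them cort (1.00 ± 0.14, adjusted p = 1.2e-06) and APC7 (0.73 ± 0.11, adjusted p = 3e-06).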

How the data were processed

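Per the labels and the submitters' processing notes, the authors hybridised biotin-labelled total RNA from Kc167 cells and deposited log2 values made with RMA (version not given in the sources used here). RMA brings arrays to a common distribution, so a change in total RNA per cell cannot be seen. Of 18952 probe sets, 13646 carried 1 gene in the platform annotation, 402 several and 183 were controls of the manufacturer. For each of 11981 genes 1 probe set was kept, the brightest on average.

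Group means were fitted over 36 arrays with limma 3.58.1 in R 4.3.3 (lmFit and eBayes, 27 residual and 5.37 prior degrees of freedom, two-sided, Benjamini-Hochberg over all genes), and a gene was called at an adjusted p under 0.05. The permutation analysis named in the study's methods has no stated settings, so limma took its place. The script was tested on simulated data. Control at 72 h against 24 h was added after the data were seen. The 4 arrays per group limit the precision. The design names 4 independently grown cultures. Same-numbered arrays deviated together at 24 h (r from 0.36 to 0.53 between conditions). So did control 1 with MMS 2 (0.50), control 2 with MMS 1 (0.36), control 3 with MMS 4 (0.32) and control 4 with MMS 3 (0.24). The split is thus of arrays 1 and 2 from 3 and 4. Same-numbered arrays gave -0.44 to 0.20 at 1 h, -0.03 to 0.46 at 8 h and -0.29 to -0.01 at 72 h. The labels do not say what a number marks, so the split at 24 h comes from the data.

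The genes, role groups, other lists and the tests were chosen with earlier results of these data known. Named genes were the 10 largest called changes per comparison, called genes of the minority direction and the 5 smallest adjusted p of each change of effect. Array values are given for the 4 largest changes at 24 h and the gene nearest 0, and for Bub1, Sse and cmet, picked later. The alternatives were an adjusted p under 0.01, centring, further quantile normalization, the mean of a gene's probe sets, a filter on dim genes, the compared arrays alone, no 8 h arrays, a trended robust prior, array weights, a replicate block and each array left out.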

Additional observations from a re-analysis of the deposited data

Results flagged for a closer look

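In 72 groups of 4 arrays, for the 8 genes given array by array, 5 had 1 array far from the other 3, and chance gives about 1 in 20. These were Incenp in array 1 of MMS at 8 h (10.75), twe in array 2 of control at 24 h (4.45) and in array 2 of MMS at 72 h (4.18), and Sse in array 4 of control at 0 h (8.68) and array 3 of MMS at 72 h (8.97). No array appeared more than once. The count of 5 lies near the chance share.

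The MMS effect differed between time points by the test of the difference itself. From 8 h to 24 h it changed by -1.17 on the log2 scale for ncd, -1.04 for glu, -1.03 for pim, -0.99 for Cap-D2 and -0.96 for mad2. From 24 h to 72 h it changed by 1.36 for scra, 1.35 for ncd, 1.27 for tum, 1.21 for rod and 1.19 for barr. ncd appears in both, but both changes use the same 24 h arrays with opposite sign, so they are not independent.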

How the results depend on the processing

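Of 962 alternatives for 51 results of single genes, 946 kept the direction and the side of the threshold, 14 lost the call, in CycB3 at 8 h and in 6 genes at 72 h, and 2 turned sign. The 2 were fzy at 8 h (0.20) and in control at 72 h against 0 h (0.071) with the mean of its 3 probe sets, 2 of them dim. At 8 h, CycB3 lost its call without array 3 of MMS at 8 h (adjusted p = 0.0522). With only the arrays of the groups compared, tum (adjusted p = 0.123), borr (0.0902) and Ndc80 (0.0517) lost their calls at 72 h, and tum did with array weights (0.0712).

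Of 464 counts under alternatives, 442 stayed within 1.5 times. For fits with an array left out, shares over all genes are not given beside the counts. With MMS at 72 h, 9 genes fell, 4 at an adjusted p under 0.01 and 15 after centring, and 1 rose, 3 with the compared arrays alone, 5 with array weights and 1 to 4 with single arrays left out. Between MMS at 72 h and 24 h, 6 fell, 14 after centring, and 9 rose, 4 at an adjusted p under 0.01, 4 after centring, 5 after further quantile normalization and 4 to 10 with single arrays left out. In control at 8 h, 2 rose, 1 after centring, and in control at 24 h 10 fell, 6 at an adjusted p under 0.01. The MMS effect moved down from 8 h to 24 h in 15 genes, 5 at an adjusted p under 0.01 and 7 to 17 with single arrays left out. With MMS at 8 h, 0 to 2 rose with single arrays left out. The replicate block gave 28 lower genes at 24 h, 35 on the 24 h arrays alone (chosen after seeing the data), where 7 genes gained a call, and moved no count by over 1.5 times. Centring moved the median of all genes by over 0.1: to -0.21 for MMS at 72 h (mitotic genes -0.22), -0.13 for control at 8 h against 0 h (-0.29), -0.13 for control at 72 h against 0 h (-0.99), -0.10 for control at 72 h against 24 h (-0.75), -0.25 between MMS at 72 h and 24 h (-0.04) and -0.12 for the change from 24 h to 72 h (0.51). Beyond the fewer arrays or the stricter threshold itself, the cause was not tested. Array number, with 4 per group, and dim signal in twe, sub and Klp59C limit what could be called.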
